A study of Danio rerio with 14 samples.

Results

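The genes described here are 5 of the 32105 zebrafish genes counted by RNA-seq in embryos at 72 hours post-fertilization (hpf). They were chosen from the counts themselves, as genes strongly raised by the dioxin TCDD that are not enzymes of xenobiotic metabolism, so their response to TCDD is given as a description and carries no test. They are ctsl.1 (ENSDARG00000003902), mamdc2b (ENSDARG00000073695), ifitm1 (ENSDARG00000093303), ENSDARG00000097714, which has only a clone-based symbol, and ENSDARG00000104261, to which the table of gene names used here gives none. The choice names the genes without a numeric threshold.

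Embryos of the ahrra-null line, made with zinc finger nucleases, and wild-type embryos were compared, and the strain of both is given as Tupfel longfin. At 6 hpf they were exposed for 1 h to 2 nM TCDD or to the carrier, 0.01% DMSO, and were then kept without it up to 72 hpf. The groups were ahrra-null TCDD (replicates 13 to 16), ahrra-null DMSO (replicates 9 to 12), wild-type TCDD (replicates 6 to 8) and wild-type DMSO (replicates 2 to 4), with 4 libraries in each ahrra-null group and 3 in each wild-type group. The sources used here give neither the allele of the null line nor the number of founders, clutches or embryos behind a library. Replicates may therefore be technical, and p-values speak only of the variation among these 14 libraries.

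The aryl hydrocarbon receptor (AHR) is a transcription factor that a ligand such as TCDD activates. With its partner ARNT it binds short response elements in DNA and raises target genes, among them the cytochrome P450 family 1 enzymes and the AHR repressors. ahrra encodes a repressor of this kind, and the series asks how its loss alters expression at rest and after TCDD. Of the genes described here, ctsl.1 encodes a protease of the cathepsin L type, papain-like cysteine proteases that in other vertebrates work mainly in lysosomes. mamdc2b is named for its MAM domain, a fold found in extracellular and adhesion proteins, and MAMDC2 of mammals is a secreted matrix proteoglycan. ifitm1 belongs to the interferon-induced transmembrane proteins, which in mammals hinder the entry of enveloped viruses into cells. No role is given here to ENSDARG00000097714 or ENSDARG00000104261.

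A library held 16852240 to 23081186 counts, and 21606 genes passed the filter on low values. Within a group no library was a copy of another: chi-square over its degrees of freedom was 2.44 to 17.3 for the 18 replicate pairs. Pairs from different groups were not compared in this way. The targeted gene ahrra was not lower in the null groups (1.14 ± 0.225 CPM in ahrra-null DMSO, n = 4, and 0.936 ± 0.402 CPM in wild-type DMSO, n = 3, mean ± SD). With TCDD it was higher in ahrra-null (43.1 ± 15.2 CPM, n = 4) than in wild type (17.5 ± 3.19 CPM, n = 3), a log2 difference of 1.3 ± 0.28 (SE) with adjusted p = 0.00714. Without knowledge of the lesion, the genotype labels cannot be checked by its expression. Markers of muscle, lens, neurons, blood and epidermis were present in every group, as whole embryos would give. The libraries come from whole embryos, so fewer cells of a type and less RNA per cell cannot be told apart. Levels are given in CPM, counts scaled to a common library size with TMM factors, which do not correct for gene length and are compared within a gene only. Adjusted p-values are from edgeR's quasi-likelihood test over all 21606 genes, with the Benjamini-Hochberg method and a threshold of 0.05. The SE beside a log2 difference is approximate and was derived from the F statistic.

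All 5 genes passed the filter. ENSDARG00000104261 passed through the libraries in which it was high: it had at most 6 counts in a DMSO library. In each line every TCDD library lay above every DMSO library for 5 of 5 genes. The choice fixes this outcome. Over all genes tested, the share with all TCDD libraries above all DMSO libraries was 3.14% in ahrra-null and 6.64% in wild type, and the share called higher with TCDD was 0.815% in ahrra-null and 0.481% in wild type. The median log2 fold change of the 5 genes was 2.63 in ahrra-null and 2.41 in wild type, beside 0.0037 and -0.0012 for all genes in the same order of lines. The 2 comparisons share no libraries.

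**Figure D1:**
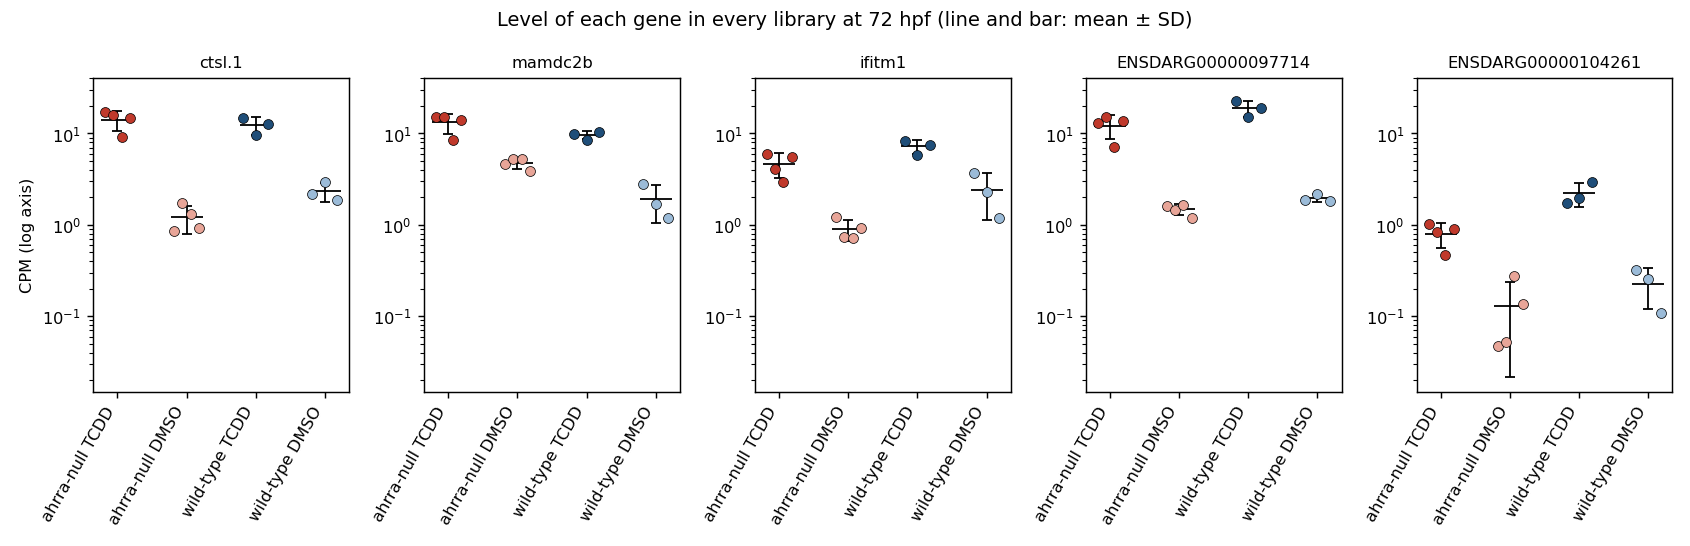
CPM of the 5 genes (logarithmic y axis) in each library, by group, with points for libraries and bars for the group mean ± SD. In both lines every TCDD point lies above every DMSO point of the same line, which the choice of the genes fixes. With DMSO mamdc2b was called higher in ahrra-null and ifitm1 lower, and the other 3 genes were not called.

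The cathepsin gene ctsl.1 measured 17.2, 15.8, 9.18 and 14.6 CPM in the ahrra-null TCDD libraries (replicates 13 to 16), against 0.851, 1.73, 1.32 and 0.915 CPM in replicates 9 to 12, the ahrra-null DMSO libraries. In wild type it measured 14.9, 9.57 and 12.8 CPM with TCDD (replicates 6 to 8), against 2.19, 2.96 and 1.89 CPM with DMSO (replicates 2 to 4). The TCDD levels of the lines overlapped, while every ahrra-null DMSO library lay below every wild-type DMSO library. The mean with TCDD was thus 11.8 times that with DMSO in ahrra-null (log2 fold change 3.57) and 5.30 times in wild type (2.41). By this measure ctsl.1 ranked 8 in ahrra-null and 16 in wild type among the 21606 genes, from the highest fold down. From low to high, its group means ran from ahrra-null DMSO through wild-type DMSO and wild-type TCDD to ahrra-null TCDD. The difference of the last pair was not called (adjusted p = 0.544).

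The matrix gene mamdc2b was the only gene of the 5 whose mean without TCDD was higher in ahrra-null than in wild type. It measured 15.2, 15.2, 8.43 and 14 CPM in ahrra-null TCDD, against 4.68, 5.26, 5.22 and 3.89 CPM in ahrra-null DMSO. The wild-type values were 9.80, 8.54 and 10.4 CPM with TCDD, against 2.83, 1.68 and 1.19 CPM with DMSO. Here the ahrra-null DMSO libraries all lay above the wild-type DMSO libraries. The ratio of means was 2.77 in ahrra-null (log2 fold change 1.48, rank 30) and 5.04 in wild type (2.33, rank 17), which makes it the smallest of the 5 log2 fold changes in ahrra-null. Its means ran upward from wild-type DMSO through ahrra-null DMSO and wild-type TCDD to ahrra-null TCDD.

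ifitm1 had the smallest log2 fold change of the 5 in wild type, and its wild-type DMSO libraries were spread widely. It measured 6.03, 4.05, 2.96 and 5.60 CPM in ahrra-null TCDD, against 1.23, 0.736, 0.714 and 0.915 CPM in ahrra-null DMSO. In wild type it stood at 8.27, 5.87 and 7.55 CPM with TCDD, against 3.73, 2.30 and 1.19 CPM with DMSO. The lowest wild-type DMSO library lay within the range of the ahrra-null DMSO libraries. The ratio of means was 5.19 in ahrra-null (log2 fold change 2.35, rank 14) and 3.01 in wild type (1.59, rank 28). Without wild-type DMSO replicate 2, the highest of its group, the log2 fold change in wild type was 2.04, and without replicate 4, the lowest, it was 1.27. The order of its means was ahrra-null DMSO, wild-type DMSO, ahrra-null TCDD and wild-type TCDD, from low to high.

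The locus ENSDARG00000097714 measured 12.9, 15.1, 7.03 and 13.7 CPM in ahrra-null TCDD, against 1.61, 1.47, 1.65 and 1.19 CPM in ahrra-null DMSO. The wild-type libraries held 22.5, 15.2 and 18.8 CPM with TCDD, against 1.87, 2.19 and 1.84 CPM with DMSO. The groups stood far apart in both lines: the lowest TCDD library was 4.27 times the highest DMSO library in ahrra-null and 6.94 times in wild type. The ratio of means was 8.24 in ahrra-null (log2 fold change 3.04, rank 9) and 9.60 in wild type (3.26, rank 8). From low to high, its means ran from ahrra-null DMSO through wild-type DMSO and ahrra-null TCDD to wild-type TCDD. The DMSO groups did not overlap, but their difference was not called by the test (adjusted p = 0.439).

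ENSDARG00000104261 was counted too sparsely for its DMSO level to be precise. It had 18, 15, 8 and 15 counts (1.02, 0.833, 0.465 and 0.893 CPM) in ahrra-null TCDD, against 1, 1, 5 and 3 counts (0.0473, 0.0526, 0.275 and 0.137 CPM) in ahrra-null DMSO. The wild-type libraries held 41, 36 and 55 counts (1.74, 1.96 and 2.94 CPM) with TCDD, against 6, 5 and 2 counts (0.320, 0.255 and 0.108 CPM) with DMSO. Its summed counts were 56 against 10 in ahrra-null, a ratio of rates of 6.46 with an exact 95% interval of 3.26 to 14.2. In wild type they were 132 against 13, a ratio of 9.52 with an interval of 5.38 to 18.4. These intervals cover counting error only. They leave out the spread among libraries and the choice of the gene by this same response, so they are not a test of it. The fitted log2 fold change was 2.63 in ahrra-null (rank 11) and 3.23 in wild type (rank 9). In ahrra-null it was 3.22 without DMSO replicate 11, which holds 5 of the 10 DMSO counts, and 1.99 with a prior count of 2. The means of the gene rose in the order ahrra-null DMSO, wild-type DMSO, ahrra-null TCDD and wild-type TCDD, and the DMSO groups overlapped.

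With carrier alone 2 of the 5 genes were called between the lines, in opposite directions. This comparison was not used in choosing the 5 genes. Its DMSO libraries were, however, part of the TCDD comparisons by which they were chosen, so it is not fully independent of the choice. mamdc2b was higher in ahrra-null DMSO (4.76 ± 0.637 CPM, n = 4) than in wild-type DMSO (1.90 ± 0.840 CPM, n = 3), a log2 difference of 1.32 ± 0.28 (SE) with adjusted p = 0.00367. ifitm1 was lower in ahrra-null DMSO, at 0.899 ± 0.238 CPM against 2.41 ± 1.28 CPM in wild-type DMSO (-1.40 ± 0.39, adjusted p = 0.021). The other genes were not called: the log2 difference was -0.98 ± 0.36 for ctsl.1 (adjusted p = 0.0686), -0.42 ± 0.35 for ENSDARG00000097714 (0.439) and -0.84 ± 0.65 for ENSDARG00000104261 (0.384). The 2 calls among 5 genes stand beside a share of 21.6% called among all genes in this comparison, where 4670 genes differed. Groups did not overlap for 3 of the 5, namely mamdc2b, higher, and ctsl.1 and ENSDARG00000097714, lower, against shares of 12.9% higher and 13.2% lower over all genes.

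The mamdc2b call held in every alternative run and without each library in turn (highest adjusted p = 0.0229). The ifitm1 call did not: its adjusted p was 0.107, with a log2 difference of -0.94, without wild-type DMSO replicate 2, and between 0.0501 and 0.0589 without wild-type DMSO replicate 3 or ahrra-null DMSO replicate 10, 11 or 12. ctsl.1 was called lower in ahrra-null DMSO by DESeq2 (adjusted p = 0.00353), in a fit of these 2 groups alone (0.0171) and without wild-type TCDD replicate 7 (0.0441), ahrra-null DMSO replicate 10 (0.0468) or ahrra-null TCDD replicate 15 (0.0111).

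Among the wild-type DMSO libraries, the marker sums of 9 of 11 tissue lists fell in the order of ifitm1 and mamdc2b, highest in replicate 2 and lowest in replicate 4. Replicate 2 over replicate 4 was 3.68 for exocrine pancreas, 2.09 for liver and 1.97 for intestine, and 1.013 to 1.23 for the other 6 lists in this order. Outside it, lens ran the opposite way (0.841) and erythroid was highest in replicate 3 (1.14). Values for the digestive organs follow. The summed CPM of 8 intestine gene IDs was 60.5 to 74.6 in ahrra-null DMSO, against 169.9, 113 and 86.3 in wild-type DMSO replicates 2, 3 and 4, where ifitm1 stood at 3.73, 2.30 and 1.19 CPM. For 11 liver gene IDs the sums were 322 to 403 in ahrra-null DMSO, against 929.8, 688 and 446 in the same wild-type libraries. For 12 exocrine pancreas gene IDs they were 10.02 to 13.8 in ahrra-null DMSO, against 48.6, 28.3 and 13.2. None of the intestine or liver IDs was at 0 in either group, and 1 pancreas ID was at 0 in wild-type DMSO. In ahrra-null DMSO against wild-type DMSO, 4 of 7 intestine, 8 of 10 liver and 5 of 6 pancreas genes tested were called lower and 0 higher. Over all genes, 21.6% were called in either direction. Of the other lists, 3 of 5 hatching gland and 3 of 16 macrophage and neutrophil genes were lower and 0 higher. Lens had 3 of 3 higher, and heart muscle 1 of 8 higher and 0 lower. Skeletal muscle and epidermis each had 1 of 12 higher and 2 lower, erythroid 2 of 7 each way, and neuron 0 of 5 called. The part of any of these markers in the ifitm1 and mamdc2b differences was not tested.

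After TCDD the genes without an assigned role were lower in ahrra-null than in wild type. This comparison was not used in choosing the genes. Its TCDD libraries were, however, part of the comparisons by which they were chosen, and ENSDARG00000104261 passed the filter through TCDD libraries. The comparison is therefore not fully independent of the choice. ENSDARG00000104261 stood at 0.804 ± 0.240 CPM in ahrra-null TCDD (n = 4) and 2.21 ± 0.642 CPM in wild-type TCDD (n = 3), a log2 difference of -1.44 ± 0.29 with adjusted p = 0.000661. ENSDARG00000097714 stood at 12.2 ± 3.55 CPM in ahrra-null TCDD and 18.9 ± 3.65 CPM in wild-type TCDD (-0.63 ± 0.19, adjusted p = 0.0231). For both the groups did not overlap, although for ENSDARG00000097714 the highest ahrra-null TCDD library, at 15.1 CPM, lay next to the lowest wild-type TCDD library, at 15.2 CPM. The share of all genes called in this comparison was 25.8%, and 18.4% were lower in ahrra-null TCDD with no overlap. In the same comparison 5 of 10 liver, 3 of 7 intestine, 3 of 5 hatching gland and 3 of 16 macrophage and neutrophil genes tested were called lower and 0 higher. Others went the opposite way: 5 of 8 heart muscle, 1 of 3 lens and 1 of 6 exocrine pancreas genes were called higher and 0 lower. Skeletal muscle had 4 of 12 higher and 1 lower, epidermis 3 of 12 higher and 2 lower, and erythroid 1 of 7 each way. Of 5 neuron genes 0 were called higher and 1 lower. Liver sums were 219 to 371 CPM in ahrra-null TCDD and 445 to 497 CPM in wild-type TCDD, and intestine sums were 56.1 to 93.5 CPM in ahrra-null TCDD and 104 to 112 CPM in wild-type TCDD. Their part in the calls was not tested. ifitm1 (-0.64 ± 0.26, adjusted p = 0.0885), mamdc2b (0.46 ± 0.19, adjusted p = 0.0952) and ctsl.1 (0.19 ± 0.20, adjusted p = 0.544) were not called.

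The call of ENSDARG00000104261 held in every alternative and without each library in turn (highest adjusted p = 0.0102). That of ENSDARG00000097714 was lost without wild-type TCDD replicate 6 (adjusted p = 0.111) or 8 (0.0589) and in a fit of these 2 groups alone (0.142). mamdc2b was called higher in ahrra-null TCDD without ahrra-null TCDD replicate 15 (log2 difference 0.63, adjusted p = 0.00325) or without wild-type DMSO replicate 2 (0.46, adjusted p = 0.042). ifitm1 was called lower there with limma voom (adjusted p = 0.0279), in a fit of these 2 groups alone (0.0306) and without wild-type DMSO replicate 2 (0.0264) or 4 (0.0216).

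**Figure D2:**
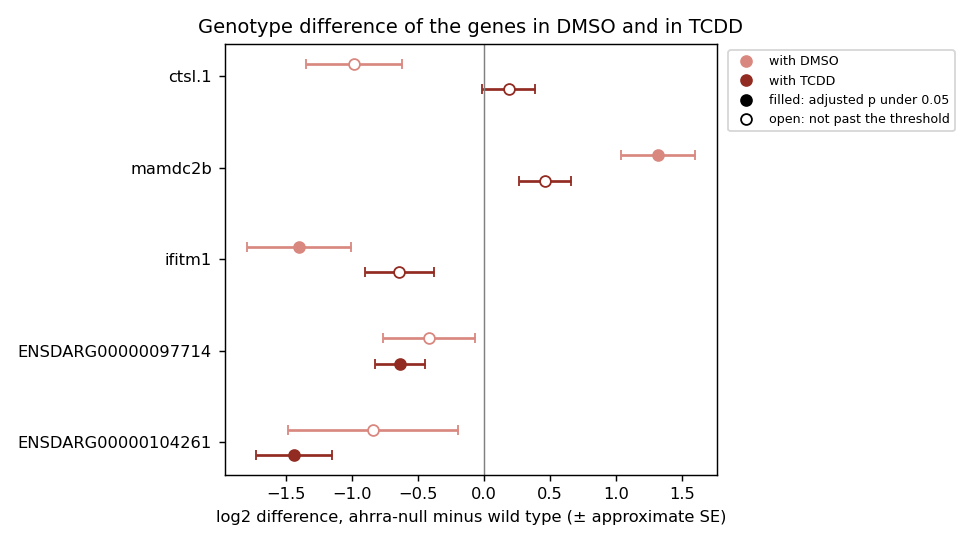
Log2 ratio of ahrra-null over wild type (x axis, ± approximate SE) for each gene, with DMSO and with TCDD, with filled points where the adjusted p was under 0.05. mamdc2b with DMSO (1.32) and ifitm1 with DMSO (-1.40) are filled, as are ENSDARG00000097714 (-0.63) and ENSDARG00000104261 (-1.44) with TCDD.

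The size of the TCDD response was not shown to differ between the lines for any of the 5. The interaction, the log2 fold change in ahrra-null minus that in wild type, was 1.17 ± 0.41 for ctsl.1, -0.85 ± 0.34 for mamdc2b and 0.76 ± 0.48 for ifitm1. It was -0.22 ± 0.40 for ENSDARG00000097714 and -0.60 ± 0.77 for ENSDARG00000104261. None passed (adjusted p = 0.948 to 0.986), and edgeR called 0 genes of all tested (0%), while 1117 had an unadjusted p under 0.05 (5.17%), DESeq2 called 7 and limma voom 1. ctsl.1 (unadjusted p = 0.0139) and mamdc2b (unadjusted p = 0.0249) were among the 1117, with opposite signs. The mean DMSO level of ctsl.1 was 1.2 CPM in ahrra-null and 2.34 CPM in wild type, and that of mamdc2b was 4.76 CPM in ahrra-null and 1.90 CPM in wild type.

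Among the ahrra-null TCDD libraries, replicate 15 was lowest for all 5 genes. Its CPM was 0.506 to 0.578 times the mean of replicates 13, 14 and 16. Of 17859 genes with a mean of at least 2 CPM in those 3 libraries, the median of this ratio was 0.997. Of the same genes, 0.386% were at or below 0.578, the ratio of ctsl.1. ENSDARG00000104261, at most 1.02 CPM in those libraries, is not among them, and its ratio rests on 8 counts in replicate 15. Genes of the AHR response that encode xenobiotic enzymes or repressors were low in the same library: the ratio was 0.429 for CYP1A1, the enzyme commonly used as a readout of AHR activation, 0.450 for CYP1B1, 0.532 for cyp1c1, 0.418 for ahrra and 0.503 for ahrrb. The ratio was nearer to that of the median gene for tiparp (0.758) and the receptor gene ahr2 (0.855), both called higher with TCDD in each line. For these genes the ratio takes in the level with DMSO as well as the rise with TCDD, and the part of each was not tested. tiparp measured 55.2 CPM in replicate 15 and 67.7 to 76.0 CPM in the others, beside a mean of 49.8 CPM in ahrra-null DMSO. For ahr2 these values were 113 CPM, 125 to 138 CPM and 64.0 CPM. The ratio was 1.05 for cyp1d1, which was not called with TCDD in either line. Without replicate 15 the log2 fold change in ahrra-null was 3.73 for ctsl.1, 1.64 for mamdc2b, 2.51 for ifitm1, 3.23 for ENSDARG00000097714 and 2.81 for ENSDARG00000104261.

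**Figure D3:**
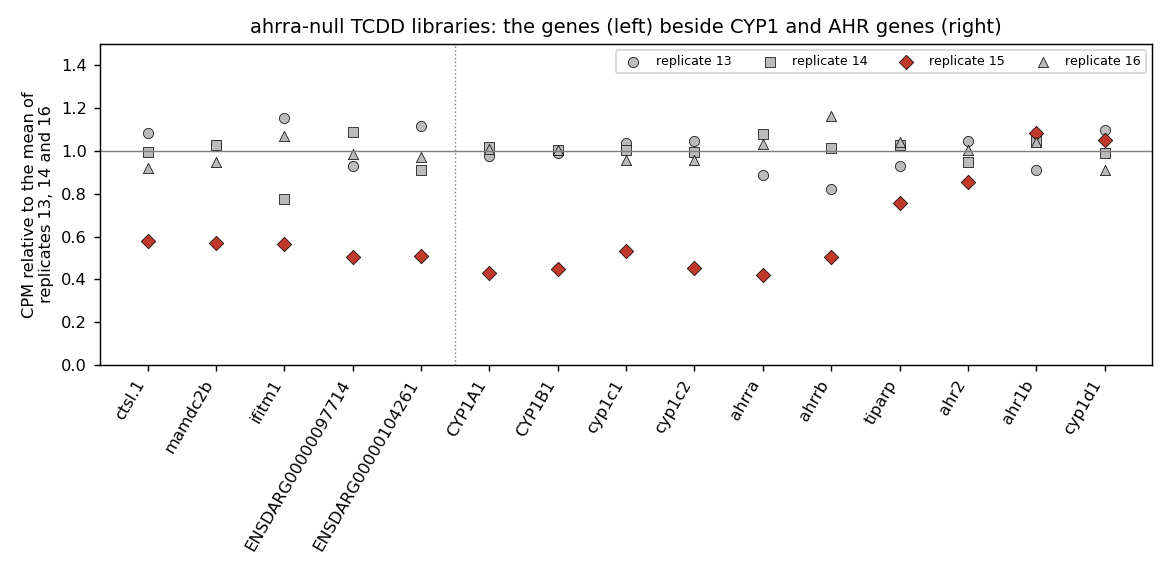
CPM of each ahrra-null TCDD library divided by the mean of replicates 13, 14 and 16 (y axis), for the 5 genes left of the dotted line and for cytochrome P450 family 1 and AHR genes right of it. Replicate 15 (diamonds) lies at 0.506 to 0.578 for the 5 genes and at 0.418 to 0.532 for CYP1A1, CYP1B1, cyp1c1, cyp1c2, ahrra and ahrrb. It lies at 0.758 for tiparp and 0.855 for ahr2.

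The likeness of patterns was measured as the root mean square difference between the log2 CPM of a pair of genes over the 14 libraries, each gene centred on its own mean. The split between TCDD and DMSO, by which the genes were chosen, enters this measure, so their nearness to other genes raised by TCDD and their distance from the median gene are a description that the choice largely fixes. For ctsl.1 the nearest genes were ENSDARG00000097714 (0.42), CYP1B1 (0.43) and the growth factor gene fgf7 (0.50), where the median over all genes was 1.57. For ENSDARG00000097714 they were CYP1B1 (0.29), fgf7 (0.35) and ctsl.1 (0.42), against a median of 1.57. ENSDARG00000104261 was nearest to the AHR repressor gene ahrrb (0.49), CYP1B1 (0.57) and ENSDARG00000097714 (0.58), against a median of 1.37. ifitm1 was nearest to the glucuronosyltransferase gene ugt1b1 (0.43), the ammonium transporter gene RHCG (0.51) and the cytochrome b5 gene CYB5A (0.53), against 1.19. mamdc2b was nearest to the chemokine receptor gene CCR9 (0.35), the forkhead gene FOXQ1 (0.50) and ENSDARG00000097726 (0.51), against 1.09. Among the 10 pairs of the 5 genes the measure ran from 0.42 to 1.04, and the 4 pairs that include mamdc2b had the highest values, 0.97 or more.

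RHCG was picked for its likeness to ifitm1 over these libraries and so is not independent of it. The difference of ifitm1 between the lines enters this picking, so that of RHCG is given without a test. RHCG was lower in ahrra-null in both exposures. The log2 difference was -1.33 ± 0.32 with DMSO and -0.69 ± 0.25 with TCDD. Its wild-type DMSO libraries ran from 1.03 to 2.61 CPM. RHCG was not called with TCDD in wild type (0.82 ± 0.27, adjusted p = 0.25). ugt1b1, picked in the same way and also given without a test, was lower in ahrra-null with DMSO (-0.70 ± 0.23). CCR9 was picked for its likeness to mamdc2b. Its log2 fold change with TCDD was 1.95 in ahrra-null and 2.27 in wild type. The picking largely fixes this rise, so it is given without a test. CCR9 was not called between the lines.

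Among the relatives of ctsl.1, ctss2.1 and ctss2.2 rose with TCDD in ahrra-null. On a list of cathepsins and their cystatin inhibitors, without ctsl.1, 18 of 20 gene IDs were tested. With TCDD 2 rose and 0 fell in ahrra-null, where 0.815% of all genes were called higher, and 0 were called in wild type (0.481% of all genes called higher). At an unadjusted p under 0.05 there were 7 in ahrra-null and 3 in wild type. The share of all genes at that threshold with TCDD is not given here. The log2 fold change was positive for 15 of the 18 in ahrra-null and for 11 in wild type. The median log2 fold change was 0.12 in ahrra-null and 0.04 in wild type, beside 0.0037 and -0.0012 for all genes. The 2 called rises were ctss2.1 and ctss2.2, named for cathepsin S. ctss1, also named for cathepsin S, was not called. Its log2 fold change was -0.28 ± 0.24 in ahrra-null (adjusted p = 0.734) and -0.54 ± 0.28 in wild type (adjusted p = 0.66). ctss2.1 measured 3.07, 4.05, 1.69 and 3.81 CPM in ahrra-null TCDD, against 1.37, 0.368, 1.099 and 1.42 CPM in ahrra-null DMSO (log2 fold change 1.54 ± 0.29, adjusted p = 0.00881). In wild type it measured 3.27, 2.56 and 3.05 CPM with TCDD, against 1.33, 1.43 and 1.08 CPM with DMSO (1.21 ± 0.32, adjusted p = 0.111). Groups did not overlap in either line, and DESeq2 and a fit of the wild-type libraries alone called it in wild type too. ctss2.2 rose by 0.90 on the log2 scale in ahrra-null (SE 0.20, adjusted p = 0.0241), with a value of 0.53 ± 0.25 in wild type (adjusted p = 0.578). The ahrra-null call of ctss2.1 was lost in a fit of the ahrra-null libraries alone, and that of ctss2.2 without ahrra-null DMSO replicate 11 or 12 or TCDD replicate 13.

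The genes closest to ctsl.1 in name were not called with TCDD. ctsla averaged 198 CPM in ahrra-null TCDD and 180.2 CPM in ahrra-null DMSO (0.14 ± 0.06, adjusted p = 0.4), and 188.7 CPM in wild-type TCDD and 188.8 CPM in wild-type DMSO. ctsll (0.42 ± 0.38 in ahrra-null, adjusted p = 0.757) and ctslb.4 (0.34 ± 0.65 in ahrra-null, adjusted p = 0.904) stood below 1 CPM in every group mean. ctslb, known as a gene of the hatching gland, had 1 to 6 counts in a library and was set aside by the filter. The sum over 6 hatching gland gene IDs was 113 to 126 CPM in ahrra-null TCDD and 101 to 113 CPM in ahrra-null DMSO, and 125 to 133 CPM in wild-type TCDD and 116 to 143 CPM in wild-type DMSO, with 0 of 5 tested called with TCDD in either line. Reads of near copies in this family may have been split or lost in counting.

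The interferon list gave no more calls with TCDD than the share over all genes would give, which is near 0 for a list of this size (0.815% called higher in ahrra-null and 0.481% in wild type). Of 40 gene IDs on a list of interferon response genes and ifitm relatives, without ifitm1, 24 were tested, and 0 were called with TCDD in either line. At an unadjusted p under 0.05 there were 2 in ahrra-null, stat2 (0.19) and irf9 (0.38), both transcription factors of interferon signalling, and 0 in wild type. The share of all genes at that threshold is not given here, so these 2 do not set the list apart. DESeq2 and limma voom also called 0 in both lines, and 1 was called in ahrra-null without TCDD replicate 15. The 16 IDs set aside for low counts included isg15, mxa and rsad2, and the list's median log2 fold change was 0.10 in ahrra-null and 0.08 in wild type. IFITM5, known for its role in bone, averaged 4.07 ± 0.59 CPM in ahrra-null TCDD and 4.87 ± 0.40 CPM in ahrra-null DMSO (n = 4 each), and 4.32 ± 0.83 CPM in wild-type TCDD and 4.68 ± 0.49 CPM in wild-type DMSO (n = 3 each), with adjusted p = 0.526 in ahrra-null and 0.932 in wild type. The sum over 20 macrophage and neutrophil gene IDs was 50.4 to 62.3 CPM in ahrra-null TCDD and 56.3 to 63.0 CPM in ahrra-null DMSO, and 68.0 to 69.8 CPM in wild-type TCDD and 59.23 to 67.0 CPM in wild-type DMSO. Of the 16 tested, 3 rose and 1 fell with TCDD in ahrra-null, and 0 rose and 1 fell in wild type. The 3 rises in ahrra-null were above the share of all genes called higher there, 0.815%, while in wild type that share was 0.481%. The share of all genes called lower with TCDD is not given here. Of the 20 IDs, 1 was at 0 in wild-type DMSO, and none was at 0 in the other groups.

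The list of MAM domain genes likewise gave 0 calls with TCDD, beside the same shares of 0.815% and 0.481% over all genes, so that the count does not set the list apart. It also holds ENPEP, an aminopeptidase not known as a MAM domain protein, which was not called with TCDD. Of 17 gene IDs on the list, without mamdc2b, 14 were tested and 0 were called with TCDD in each line, by edgeR, DESeq2 and limma voom. In each line 2 had an unadjusted p under 0.05, a threshold for which the share of all genes is not given here. The median log2 fold change was 0.06 in ahrra-null and 0.03 in wild type. MAMDC2 (ENSDARG00000098345), the other gene of that name in the table, averaged 1.64 CPM in ahrra-null TCDD and 1.94 CPM in ahrra-null DMSO (-0.23 ± 0.23, adjusted p = 0.786). In wild type it averaged 2.05 CPM with TCDD and 2.78 CPM with DMSO (-0.45 ± 0.23, adjusted p = 0.642). Its sign between the lines with DMSO was opposite to that of mamdc2b, at -0.53 ± 0.22, and was not called (adjusted p = 0.086).

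**Figure D4:**
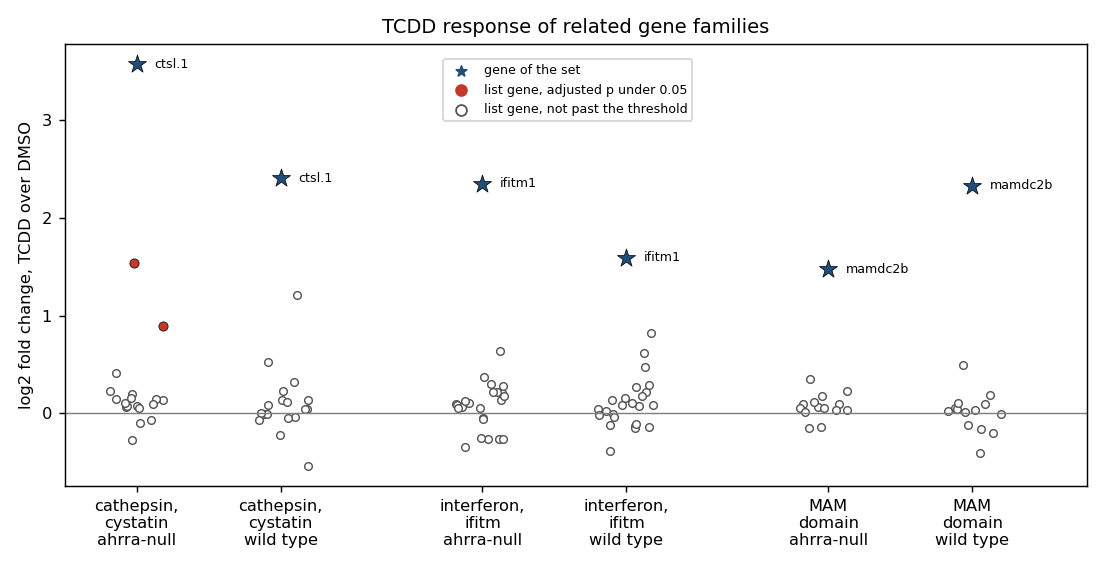
Log2 fold change of TCDD over DMSO (y axis) of the genes tested on the cathepsin and cystatin, interferon and ifitm, and MAM domain lists, in ahrra-null and in wild type. Stars mark ctsl.1, ifitm1 and mamdc2b, whose place above the other genes of their lists is fixed by their choice, and filled circles mark ctss2.1 (1.54) and ctss2.2 (0.90), which were called in ahrra-null.

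The neighbouring genes given here were not called with TCDD. In the RefSeq gene table of assembly GRCz12tu, used only for the order of genes, ctsl.1 lies near vgll2b, with a long noncoding RNA gene between them. mamdc2b lies between SMC5 and apba1b, with 7 other annotated genes before apba1b, and ifitm1 lies directly between PRKAA1 and KYAT1. The log2 fold changes of these 5 protein-coding neighbours with TCDD ran from -0.05 to 0.06 in ahrra-null and from -0.13 to 0.08 in wild type, and none was called (lowest adjusted p = 0.839 and 0.846). vgll2b was higher in ahrra-null with DMSO (0.47 ± 0.10, adjusted p = 0.0019), in a direction opposite to ctsl.1. The table holds neither ENSDARG00000097714 nor ENSDARG00000104261 by name, so their neighbours are not given. The libraries are unstranded, and reads of an overlapping gene on the other strand cannot be told apart from those of the gene itself.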

How the data were processed

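Unstranded TruSeq libraries were made from total RNA, per the labels' protocols. The authors deposited raw counts, 1 whole number for each gene ID. The authors used, per the submitters' processing notes, edgeR, HTSeq, SAMtools, TopHat2 and cutadapt, on build GRCz10. Their versions and settings and the annotation release: not given in the sources used here. Symbols came from a table that matched 26269 of 32105 IDs, and 184 of 216 list symbols were found, some by synonyms shared by several IDs.

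Genes were filtered with filterByExpr (minimum count 10; 99.9% of counts kept), scaled by TMM and fitted in 1 robust quasi-likelihood model over the 14 libraries and 4 groups (edgeR 4.0.16, limma 3.58.1, DESeq2 1.42.0, R 4.3.3). Log2 fold changes use a prior count of 0.125, likeness one of 2. The method was tested on simulated data in which all genes had the same dispersion and no sparsely counted gene was changed. That test does not cover genes as sparse as ENSDARG00000104261. The named genes are the 5 genes in every contrast, up to 4 called genes of each list with the smallest adjusted p, the 3 nearest by likeness, the nearest neighbours and genes of the same name stem. A neighbouring gene is not reported here. The genes and lists were chosen with earlier results of these data known. Alternatives were other scalings, filters, tools, fits of the compared groups alone and leaving out each library.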

Additional observations from a re-analysis of the deposited data

Results flagged for a closer look

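Of 72 groups of 4 libraries examined for the 36 genes named (8.33% of them marked), 6 had a library far from the others of its group by Dixon's criterion, which chance meets in about 1 in 20 groups. The groups are the same ahrra-null libraries seen for each gene, and some genes were picked for like patterns. The 8.33% therefore cannot be set against that rate. Wild-type groups, with 3 libraries each, were not examined. None of the marks concerns the 5 genes themselves. The largest value of the criterion among them was 0.821, for mamdc2b in ahrra-null TCDD, beside 0.835 for cyp1c1, which was marked. In ahrra-null TCDD, replicate 15 was far below the others for CYP1A1 (465 CPM), CYP1B1 (17.2 CPM), cyp1c1 (215.7 CPM), cyp1c2 (39.9 CPM) and fgf7 (18.1 CPM). In the same group replicate 14 was far above the others for ctslb.4 (0.389 CPM, 7 counts against 1 in each other library).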

How the results depend on the processing

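The median log2 fold change of the 5 genes with TCDD ran from 2.27 to 2.72 in wild type and from 2.4 to 3.10 in ahrra-null over the leave-one-out fits, with 3.10 reached without ahrra-null DMSO replicate 11. Over the other alternatives it ran from 2.36 to 2.41 in wild type and from 2.23 to 2.69 in ahrra-null. ENSDARG00000104261 was below the filter in the fit of the ahrra-null libraries alone, where the median covers the remaining genes. The number of the 5 called between the lines was 2 with DMSO (1 to 3 without each library) and 2 with TCDD (1 to 4), and 0 for the interaction in every fit. Over the cathepsin, interferon and MAM lists together, genes called with TCDD were 0 in wild type (0 to 1 without each library; 1 with DESeq2 and with only the libraries of the contrast) and 2 in ahrra-null (1 to 3; 1 with only the libraries of the contrast). All 15 nearest genes were kept with a prior count of 0.5. No direction was reversed.

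Counts over all genes moved more. With TCDD in wild type 185 genes were called, and 82 to 388 without each library; in ahrra-null 254, and 141 to 374. Between the lines with DMSO 4670 were called, and 2844 without wild-type DMSO replicate 2. For the interaction 0 were called, and up to 10 without each library. The cause was not tested. Scaling moved the median of all genes by less than 0.1 on the log2 scale. No paired analysis was possible because the groups share no replicate numbers. Depth limits ENSDARG00000104261 most, with 1 to 6 counts in a DMSO library.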

Other observations

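Some genes on the lists of ctsl.1, ifitm1 and mamdc2b differed between the lines. Their counts stand beside the share over all genes and set no list apart. Those given here were named after their values were seen. On the cathepsin and cystatin list, without ctsl.1, 2 of 18 were higher and 4 lower in ahrra-null DMSO than in wild-type DMSO, a share to be read against 21.6% called of all genes. CTSB, which encodes cathepsin B, was higher in ahrra-null with DMSO (log2 difference 1.1, adjusted p = 0.00153) and with TCDD (1.03, adjusted p = 0.00157), and cst14a.2, a cystatin, was lower with DMSO (-0.49, adjusted p = 0.000332). On the interferon list, without ifitm1, 2 of 24 were higher and 4 lower in ahrra-null DMSO, and 3 were higher and 3 lower in ahrra-null TCDD, near the shares of 21.6% and 25.8% called of all genes with DMSO and with TCDD. ifi27.1, of an interferon-inducible family, was lower in ahrra-null with DMSO (-1.29, adjusted p = 0.000135) and with TCDD (-1.1, adjusted p = 0.000525). SOCS1, a suppressor of cytokine signalling, was higher in both (1.2, adjusted p = 1.38e-05 with DMSO, and 1.33, adjusted p = 7.35e-06 with TCDD). On the MAM list 1 of 14 was higher and 1 lower in ahrra-null DMSO, beside the same 21.6%: NRP1, a neuropilin, was higher (0.15, adjusted p = 0.0366), and ENPEP, an aminopeptidase that is not known as a MAM domain protein, was lower (-1.11, adjusted p = 0.00091).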
